A study of Mus musculus with 2 samples.

Results

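In 2 rhabdoid tumors of the mouse, 9 genes of B cells and plasma cells were followed, and 2 of them, Ighm and Cd79b, carried nearly all of the difference in their summed counts between the tumors. The genes were Ighm, Igha, Igkc, Jchain, Mzb1, Cd79a, Cd79b, Ms4a1 and Pou2af1. They were chosen by name as 9 of the 55416 genes in the table of raw read counts. Rhabdoid tumors are aggressive childhood cancers marked by loss of SMARCB1, which belongs to the SWI/SNF complex that remodels chromatin. Both tumors arose in heterozygous Dppa3-cre::Smarcb1 Fl/+ mice on a C57BL/6 background. In these mice an IRES-Cre knock-in at Dppa3, which primordial germ cells express, acts on 1 floxed allele of Smarcb1. The first tumor was labelled intracranial and the second extracranial. The paper shows stained tumors of this model beside the trigeminal nerve and in the maxillary region. It does not state that these were the sequenced tumors. Both sequenced tumors carried the tumor classification MYC, and neither the age of the mice nor a normal tissue is given in the sources used here.

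B cells recognize antigen through a surface immunoglobulin made of heavy and light chains, which signals through the paired chains CD79A and CD79B. An immunoglobulin transcript joins a variable (V), a joining (J) and, in heavy chains, a diversity (D) segment to a constant region gene, and constant region genes can also be transcribed from a locus that has not been rearranged. Naive B cells carry the mu and delta heavy chain classes. Plasma cells secrete antibody, often of a switched class such as IgA, and joining chain links secreted IgA and IgM into polymers.

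Each location had 1 library, so the difference between locations has no replicate check and no p-value is given. Tumor, mouse, location and library cannot be told apart. The library labelled intracranial held 34545846 counts and the library labelled extracranial 26915696. Levels are given as CPM, counts scaled to a library size of 1e+06, with a 95% exact counting interval, and 3 counts, the limit that a count of 0 allows, corresponded to 0.0863 CPM in the intracranial and 0.112 CPM in the extracranial library. Intervals cover counting error alone and treat each read as independent. No molecular identifiers were used, and reads copied by PCR are not independent, so the intervals can be too narrow. A gene was called when the whole 95% interval of its ratio, extracranial over intracranial, lay beyond 4-fold. Of 21977 genes with 10 or more counts over both libraries, 1581 (7.19%) were called, 391 (1.78% of the tested genes) higher in the extracranial and 1190 in the intracranial library, and the median log2 ratio of all tested genes was -0.04. Smarcb1 itself had 365 and 530 counts, and reads of the deleted exons were not analysed here apart from the rest of the gene.

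The libraries also differed in their other tissue. The 10 genes of squamous and glandular epithelium summed to 15973 CPM in the intracranial library and 20.7 CPM in the extracranial library, and 9 of them were called higher in the intracranial one. Among neutrophil genes, 5 of the 6 tested were called in that direction too. Whether the location labels match the tissue in each library, given these epithelial values, was not tested. The 8 pan-leukocyte genes, such as Ptprc, which encodes CD45, together summed to 1084 and 2553 CPM (log2 ratio 1.24, 95% interval 1.22 to 1.25). In bulk tissue, fewer cells of a type and less RNA per cell cannot be told apart.

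Sequences are shown for the genes on which the results turn. The 4 J segments of the heavy chain lie upstream of Ighm and took most of the few heavy chain reads outside the constant region in the extracranial library. Their capitals mark the letters TGGGGNNNNGG, the conserved tryptophan-glycine motif of heavy chain J segments. All coordinates are those of GRCm38 with GENCODE gene models, and the J segments run 5′ to 3′ on the minus strand, from chr12:113429781-113429833 (Ighj1), chr12:113429468-113429515 (Ighj2), chr12:113429085-113429132 (Ighj3) and chr12:113428514-113428567 (Ighj4).
Ighj1: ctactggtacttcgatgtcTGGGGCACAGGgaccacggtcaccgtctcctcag
Ighj2: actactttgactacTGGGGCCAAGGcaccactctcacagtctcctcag
Ighj3: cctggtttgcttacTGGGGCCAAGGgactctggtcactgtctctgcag
Ighj4: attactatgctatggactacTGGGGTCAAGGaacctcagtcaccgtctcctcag

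The first 60 bases of the mu constant region come next in a rearranged transcript, after the J segment, and belong to the gene with the largest count. They lie at chr12:113422671-113422730 on the minus strand.
Ighm: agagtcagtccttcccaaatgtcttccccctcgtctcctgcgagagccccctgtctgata

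Cd79a and Cd79b are shown by the stretch that encodes their immunoreceptor tyrosine-based activation motif (ITAM), the phosphorylated element through which both chains signal, since the partners share this element and differed in their counts. The capitals mark the codons of the tyrosine-x-x-leucine or tyrosine-x-x-isoleucine boxes. The Cd79a stretch joins chr7:24901296-24901301 and chr7:24901431-24901469 on the plus strand, and the Cd79b stretch joins chr11:106312007-106312012 and chr11:106311867-106311905 on the minus strand. Of the 45 bases, 31 were identical between the genes.
Cd79a: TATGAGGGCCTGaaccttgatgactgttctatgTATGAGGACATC
Cd79b: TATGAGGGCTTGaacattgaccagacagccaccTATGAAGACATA

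Ighm (ENSMUSG00000076617, chr12:113418558-113422730, minus strand), the constant region of the mu heavy chain, had 458 counts in the intracranial library, or 13.2 CPM (12 to 14.4). In the extracranial library it had 8069 counts, or 301.5 CPM (295.0 to 308.2). It was 22.9-fold higher there (95% interval 20.8 to 25.2), a log2 ratio of 4.52. By CPM, Ighm ranked 518th among all genes of the extracranial library and 9963rd in the intracranial one. The counts do not separate the membrane form of the mu chain from the secreted form.

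Igha (ENSMUSG00000095079, chr12:113254830-113260236, minus strand), the constant region of the IgA heavy chain, did not follow Ighm. It had 232 counts (6.68 CPM) in the intracranial and 210 counts (7.85 CPM) in the extracranial library, a log2 ratio of 0.23 with an interval from -0.04 to 0.51. Igkc (ENSMUSG00000076609, chr6:70726435-70726966, plus strand), the constant region of the kappa light chain, had 113 and 159 counts, or 3.25 and 5.94 CPM. Its log2 ratio of 0.87 (0.51 to 1.23) lay above 0 beyond counting error and short of the 4-fold limit. The kappa gene thus differed by 1.83-fold where the mu gene differed by 22.9-fold, and the intervals of these folds (1.43 to 2.35 for Igkc) did not overlap.

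Jchain (ENSMUSG00000067149), which encodes the joining chain, had 32 and 40 counts, or 0.921 and 1.495 CPM, and its log2 ratio was 0.70 (-0.01 to 1.42). Mzb1 (ENSMUSG00000024353), an endoplasmic reticulum co-chaperone that helps the assembly of immunoglobulin in marginal zone B cells and plasma cells, had 0 and 2 counts. The count of 0 allows up to 0.0863 CPM, 2 counts correspond to 0.0747 CPM, and no ratio is given. Mzb1 thus stood at the level of a few reads in both tumors, and Jchain above it in both.

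Cd79b (ENSMUSG00000040592, chr11:106311341-106314762, minus strand), one of the signaling chains of the receptor, had 57 counts, or 1.64 CPM (1.24 to 2.13), in the intracranial library. The extracranial library held 607 counts, or 22.7 CPM (20.9 to 24.6), 13.8-fold more (10.5 to 18.5), a log2 ratio of 3.79. Its partner Cd79a (ENSMUSG00000003379, chr7:24897381-24902197, plus strand) had 19 and 15 counts, or 0.547 and 0.561 CPM, and a log2 ratio of 0.04 (-1.04 to 1.09). The partners of 1 receptor complex thus differed in their ratios: Cd79b made up 75% of their joint counts in the intracranial library (63.7 to 84.2) and 97.6% in the extracranial library (96.1 to 98.6). Per kilobase of exon, Cd79b stood at 3.05 times the level of Cd79a in the first and 41.2 times in the second.

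Ms4a1 (ENSMUSG00000024673), which encodes the B cell surface protein CD20, had 3 counts (0.0863 CPM) and 12 counts (0.448 CPM). Its ratio was 5.19 with an interval from 1.40 to 28.7. Pou2af1 (ENSMUSG00000032053), the B cell coactivator that works with the octamer-binding factors OCT1 and OCT2, had 5 and 3 counts and was below the limit for testing. Neither gene was above 0.5 CPM in either library, whereas Ighm and Cd79b were far above it in the extracranial one.

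**Figure D1:**
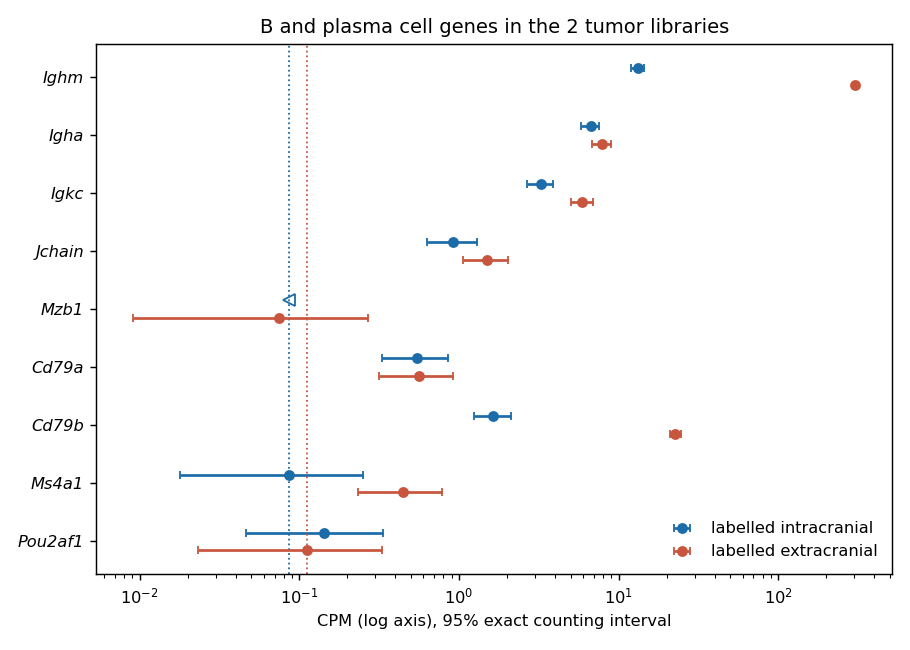
Level of each of the 9 genes in CPM, on a log axis, in the library labelled intracranial (blue) and the library labelled extracranial (red). Points are single libraries, bars are 95% exact counting intervals, dotted lines mark 3 counts in each library, and the open triangle marks the limit that the 0 counts of Mzb1 allow. Only Ighm and Cd79b are far apart between the libraries, while Mzb1, Ms4a1 and Pou2af1 lie near the dotted lines.

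Of the 9 genes, 7 had 10 or more counts and 2 were called, Ighm and Cd79b, both higher in the extracranial library, beside 1.78% of all tested genes called in that direction. The other 5 tested genes were not called, and Mzb1 and Pou2af1 had too few counts. The median log2 ratio of the 7 was 0.87, beside -0.04 over all tested genes. The 9 genes together summed to 919 counts (26.4 CPM) and 9117 counts (340.7 CPM), a log2 ratio of 3.69 (3.59 to 3.79), and Ighm held 49.8% of these counts in the intracranial and 88.5% in the extracranial library. Without Ighm the summed log2 ratio was 1.56 (1.40 to 1.72), and without Ighm and Cd79b it was 0.50 (0.31 to 0.70).

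Levels were ordered per kilobase of exon, the scale on which genes can be compared. In the intracranial library Ighm (6.99 CPM per kilobase, 6.36 to 7.66) and Igkc (6.11, 5.04 to 7.35) came first with overlapping intervals, followed by Igha at 2.50 and Cd79b at 1.15 CPM per kilobase. Cd79a (0.375) and Jchain (0.366) did not differ beyond counting error, and Pou2af1 (0.0565) and Ms4a1 (0.0140) overlapped, while Mzb1 had 0 counts. In the extracranial library Ighm stood alone at 159.9 CPM per kilobase (156.4 to 163.4), followed by Cd79b at 15.9, Igkc at 11.2 and Igha at 2.94 CPM per kilobase. There Jchain (0.594, 0.424 to 0.809) and Cd79a (0.385, 0.215 to 0.635) overlapped again, and Ms4a1, Mzb1 and Pou2af1, between 0.0440 and 0.0725 CPM per kilobase, could not be ordered. The level of Ighm was 1.14 times that of Igkc in the intracranial library and 14.3 times in the extracranial library.

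The pan-leukocyte genes also summed higher in the extracranial library, so a second scaling was made. Scaled to the 8 pan-leukocyte genes in place of the whole library, the log2 ratio of Ighm was 3.28 (3.14 to 3.42) and that of Cd79b 2.55 (2.16 to 2.97), and both stayed beyond 4-fold. On this scale 118 of all tested genes (0.537%) were called higher in the extracranial library and 2589 (11.8%) in the intracranial library. Igha had a log2 ratio of -1.003 (-1.28 to -0.73), Igkc -0.37 (-0.72 to -0.01) and Cd79a -1.20 (-2.28 to -0.15) on the same scale, all below 0 beyond counting error and none beyond 4-fold. Jchain (-0.54, -1.24 to 0.18) and Ms4a1 (1.14, -0.75 to 3.61) had intervals that held 0. The point ratios of Igha, Igkc, Jchain and Cd79a thus changed sign between whole-library and pan-leukocyte scaling. Only Igkc had intervals that left out 0 under both, since those of Igha, Jchain and Cd79a held 0 under whole-library scaling.

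**Figure D2:**
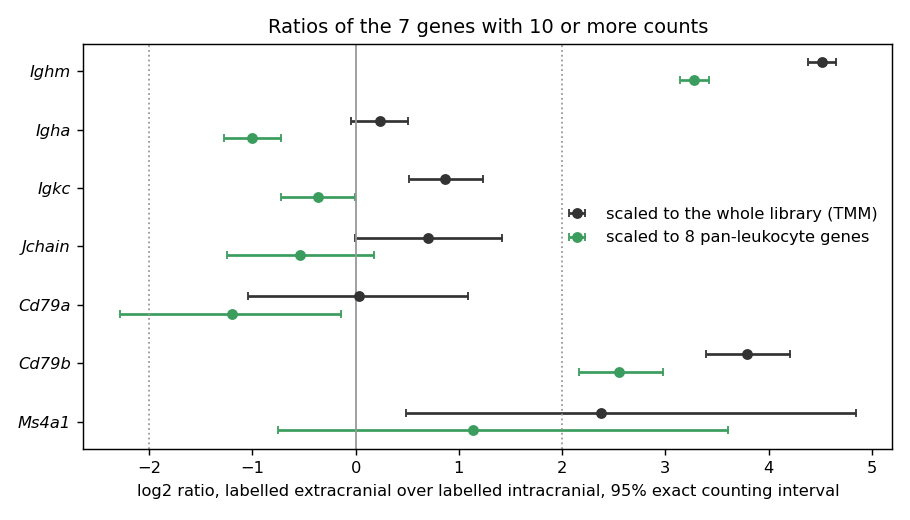
Log2 ratio, extracranial over intracranial, of the 7 genes with 10 or more counts, scaled to the whole library (black) or to 8 pan-leukocyte genes (green). Bars are 95% exact counting intervals and dotted lines mark 4-fold. Ighm and Cd79b lie right of the 4-fold line under both scalings. The points of Igha, Igkc, Jchain and Cd79a cross from the right of 0 to its left.

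The remaining immunoglobulin constant region genes place Ighm among the classes of antibody. Of 12 constant region genes 10 were tested, and 3 were called, all higher in the extracranial library: Ighm, Ighd and Iglc2. Ighd, the delta heavy chain that naive B cells make together with mu, had 1 and 182 counts, with a 95% interval of the ratio from 41.9 to 9385. Iglc2, a lambda light chain constant region, had 2 and 87 counts, with an interval from 15.2 to 474. Iglc3, nearly identical to Iglc2 so that reads could be split between them, had 2 and 11 counts, and Iglc1 had 11 and 9. The IgG genes were low in both tumors: Ighg2b had 19 and 3 counts, Ighg1 8 and 3, Ighg2c 6 and 11, and Ighg3 2 and 1. Ighe, the IgE heavy chain, had 0 counts in both libraries.

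As shares of the heavy chain constant counts, Ighm made up 63.1% (59.5 to 66.6) of 726 counts in the intracranial library and 95.2% (94.7 to 95.6) of 8479 in the extracranial library. Igha made up 32.0% (28.6 to 35.5) and 2.48% (2.16 to 2.83). Among the switched classes alone, with Ighm and Ighd left out, Igha held 86.9% (82.2 to 90.7) of 267 counts and 92.1% (87.8 to 95.3) of 228 counts. Igha thus had the most counts among the switched class genes in both tumors, at 232 and 210. The larger heavy chain count of the extracranial library lay in the mu and delta genes. The kappa gene held 88.3% (81.4 to 93.3) of 128 light chain constant counts in the intracranial library and 59.8% (53.6 to 65.7) of 266 in the extracranial library. Light chains gave 14.99% of all constant region counts in the intracranial and 3.04% in the extracranial library.

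Reads of V segments did not follow the constant regions. The annotation held 218 immunoglobulin V segments, which took 80 counts in the intracranial library and 55 in the extracranial library, against 854 and 8745 counts of the constant genes. V counts were 8.57% (6.85 to 10.5) of V and constant counts together in the first and 0.625% (0.471 to 0.813) in the second. For heavy chains alone the share was 4.47% (3.12 to 6.20) and 0.294% (0.190 to 0.434). For kappa chains it was 25.2% (18.5 to 32.9) and 14.5% (9.79 to 20.4), with overlapping intervals. Transcripts of the T cell receptor are also joined from V and constant parts. The same share was 10.1% (8.23 to 12.3) and 9.95% (7.89 to 12.3) over the receptor genes that were counted. These held 4 constant genes, of the alpha, beta and delta chains, and no gamma constant gene. Gamma V segments added 6 counts in each library, so this share does not cover all chains evenly. By chain, the alpha share was 53.8% (41.0 to 66.3) of 65 counts and 18.9% (12.8 to 26.3) of 143, and the beta share 3.58% (2.13 to 5.60) of 503 and 6.94% (5.02 to 9.29) of 591, the latter with overlapping intervals. The constant gene of the delta chain, Trdc, gave 273 counts in the intracranial and 4 in the extracranial library. A lower V share in the extracranial library was thus found for immunoglobulin heavy chains and also for the alpha chain of the T cell receptor. Chains were assigned by segment name, so segments shared by alpha and delta chains, such as Trav16d-dv11, were counted as alpha. Trdc was not part of the alpha share, and the part of delta chain reads in that share was not tested.

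**Figure D3:**
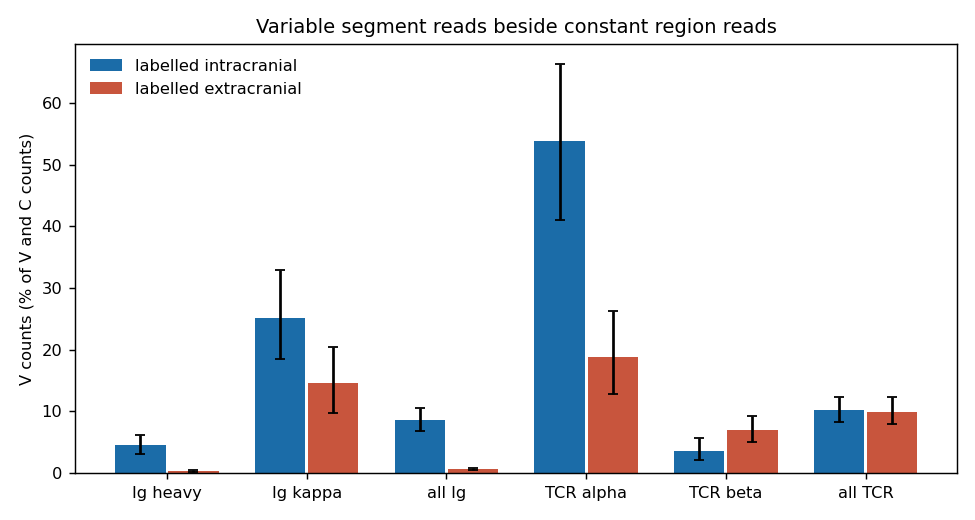
Share of V segment counts in the summed counts of V segments and constant genes, in percent. Immunoglobulin (Ig) is given for heavy chains, kappa chains and all chains. The T cell receptor (TCR) is given for the alpha chain, the beta chain and all counted genes. The bars marked all TCR hold no gamma constant gene. The library labelled intracranial is blue and the library labelled extracranial is red. Bars are single libraries with 95% exact binomial intervals. The share of all immunoglobulin chains is 8.57% and 0.625%, that of the alpha chain of the T cell receptor 53.8% and 18.9%, and that of its beta chain 3.58% and 6.94%.

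The V reads were spread thinly over many segments. In the intracranial library 42 of the 218 segments had a count and 6 had more than 3, led by Igkv1-117 and Iglv1 with 8 counts each and Igkv1-110 with 7. In the extracranial library 36 had a count and 1, Igkv8-30 with 4 counts, had more than 3, and Igkv1-110, Igkv1-117 and Igkv6-13 followed with 3 each. No V segment reached 10 counts in either library. At this depth no leading V segment could be named, and since many V segments are near-identical and it is not stated how reads that aligned to several places were treated, the count of any single segment is uncertain. The 19 D segments had 0 counts in both libraries.

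The 4 heavy chain J segments printed above had 3 counts in the intracranial and 41 in the extracranial library. Ighj1 had 2 and 17 counts, Ighj2 0 and 8, Ighj3 0 and 3, and Ighj4 1 and 13. In the extracranial library the J segments, each between 48 and 54 bases long, thus held more reads than the 113 heavy chain V segments together, which had 25, while in the intracranial library the heavy chain V segments had 34 reads. Kappa J segments had 0 and 1 counts. Which of the Ighm, Igha and other constant region reads came from rearranged transcripts was not tested, since the table gives counts per gene and not read sequences.

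The label of B and plasma cell genes was set against the genes that define these cells. Beside Ms4a1 and Cd79a, the transcription factor Pax5, which fixes B cell identity, had 1 and 10 counts, the follicular homing receptor Cxcr5 had 8 and 12, the IgE receptor Fcer2a 4 and 2, and the survival receptor Tnfrsf13c 3 and 4. These markers were thus at or near the level of a few reads in both libraries. Other genes of B cells were not: the B cell scaffold Bank1 had 31 and 577 counts, close to those of Cd79b, and Ighd, Iglc2 and Cd22 were also called higher in the extracranial library. Among plasma cell markers, Tnfrsf17, the maturation antigen BCMA, had 3 and 18 counts and a log2 ratio of 2.96 (1.19 to 5.37), which did not pass. Ebf1, an early B cell factor that stromal and fat cells also express, had 3675 and 942 counts and a log2 ratio of -1.59.

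Of the signaling genes and co-receptors of the B cell receptor, all 20 were tested, 6 were called higher in the extracranial library and 0 in the intracranial library, and the median log2 ratio was 1.54, beside 1.33 for the pan-leukocyte genes and -0.04 for all genes. Besides Cd79b, the called genes included Bank1, a B cell scaffold protein, with 31 and 577 counts (log2 ratio 4.60, 4.07 to 5.17), and the inhibitory lectin Cd22 with 66 and 393 (2.95, 2.57 to 3.35). Pik3ap1, an adaptor for phosphoinositide 3-kinase, had 1461 and 5530 counts (2.30), and the co-receptor Cd72 1345 and 4516 (2.12). The kinases next to the receptor were not called: Lyn had a log2 ratio of 1.53, Btk 1.39 and Syk -0.69, and the adaptor Blnk 1.61. Several of these genes, among them Lyn, Syk, Btk, Pik3ap1 and Cd72, are also used by myeloid cells.

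Of the transcription factors and surface genes of B cells 14 were tested and 3 were called, all higher in the extracranial library, and the median log2 ratio was 1.43. Pou2f2, which encodes the octamer-binding factor OCT2, had 680 and 4516 counts (3.11, 2.99 to 3.23). Cd40, a receptor for T cell help, had 185 and 711 counts (2.32), and Mef2c, a transcription factor of B cells, muscle and neurons, 762 and 2783 (2.25). Pou2af1, the partner of OCT2, thus had 5 and 3 counts while Pou2f2 itself was called.

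Plasma cell regulators and secretory genes had a median log2 ratio of 0.34 over 19 tested genes, 3 of them called higher in the extracranial library. Slamf7 had 42 and 198 counts (2.61), and Cd38, an ectoenzyme of plasma cells and other leukocytes, 708 and 2468 (2.18). Fcrl5 had 0 and 18 counts and was at least 7.79-fold higher against 3 counts. The regulators that direct plasma cell formation were not called: Prdm1, which encodes BLIMP1, had 322 and 313 counts (0.34), Irf4 77 and 150 (1.34) and Xbp1 5171 and 3157 (-0.34). The syndecan Sdc1, present on plasma cells and epithelia, had 5714 and 8148 counts (0.89).

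Genes of earlier and later stages of B cell development were not called. Of 10 genes of V(D)J recombination and the pre-B cell, 5 were tested and 0 were called, with a median log2 ratio of 0.04. The largest counts were those of Cd93, a surface protein that endothelium and myeloid cells also carry, with 1301 and 3622 (1.85). The recombinase genes Rag1 and Rag2 had 2 and 0 counts and 0 and 0 counts, and the surrogate light chain gene Igll1 had 2 and 0. Of 10 germinal center genes, 8 were tested and 0 were called, with a median log2 ratio of 0.41. The repressor Bcl6 had 969 and 605 counts (-0.30), and S1pr2, a receptor that holds cells in the germinal center, 1597 and 1856 (0.59).

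Factors that draw or sustain B cells showed no common direction. Of 14 tested genes 1 was called higher in the extracranial library, the lymph node homing receptor Ccr7 with 34 and 165 counts (2.66), and 2 in the intracranial library, with a median log2 ratio of 0.09. Il6, a cytokine that sustains plasma cells, had 523 and 8 counts (-5.65), and the chemokine Ccl21a 43 and 1. Cxcl13, the chemokine of B cell follicles, had 630 and 508 counts (0.07), and the survival factor Tnfsf13b, or BAFF, 354 and 700 (1.36). Among 8 tested genes of immunoglobulin transport and Fc receptors, 1 was called, Pigr, the epithelial receptor that carries polymeric IgA and IgM across mucosa. Pigr had 1061 counts in the intracranial and 0 in the extracranial library, at least 272-fold higher in the intracranial one against 3 counts, and it moved with the epithelial genes given above.

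**Figure D4:**
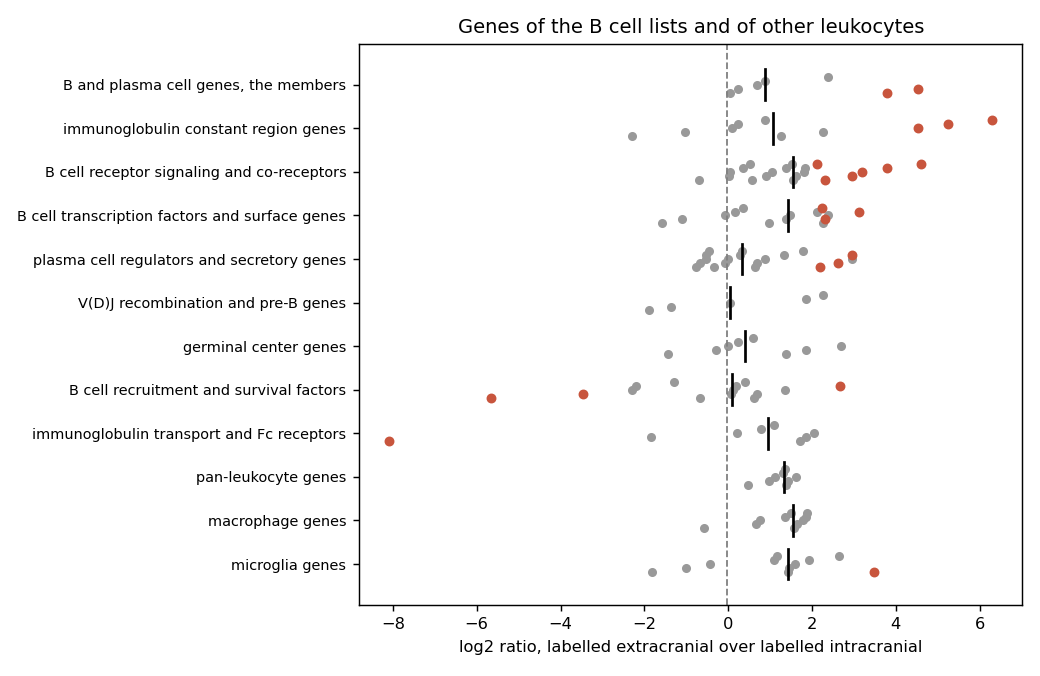
Log2 ratio, extracranial over intracranial, of every gene with 10 or more counts in the B cell lists and in 3 leukocyte lists. Points are genes, called genes are red, black bars are list medians, the dashed line is the median of all tested genes, and a count below 3 was set to 3. The immunoglobulin constant genes span from -2.29 to 6.30, and the pan-leukocyte genes lie between 0.47 and 1.62.

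Genes of other leukocytes were set beside Ighm and Cd79b. The 10 macrophage genes summed to 5815 and 13014 CPM, with 0 called, and their median log2 ratio was 1.53. The 12 microglia genes summed to 1312 and 2253 CPM. Of the 11 tested, 1 was called, Fcrls, an Fc receptor-like gene of microglia, with 1733 and 14944 counts (3.49, 3.41 to 3.56). The log2 ratios of the tested microglia genes ran from -1.82 to 3.49 with a median of 1.42. Olfml3 (25617 and 9850 counts), Tmem119 (3209 and 1836) and Slc2a5 (23 and 5) had log2 ratios below 0. The 13 T cell genes, all tested, summed to 32.9 and 69.1 CPM, and only Cd4, Cd8a and Cd8b1 were called. Their log2 ratios ran from -0.77 to 4.08 with a median of 1.32. The CD3 chain genes Cd3d (0.32), Cd3e (0.03) and Cd3g (0.18) had intervals that held 0. The T cell receptor constant genes lay above 0 beyond counting error: Trac at 2.33 (1.74 to 2.96), Trbc1 at 0.89 (0.61 to 1.18) and Trbc2 at 0.33 (0.10 to 0.56). The 8 NK cell genes summed to 2.88 and 19.3 CPM, with Nkg7 and Klrk1 called. Plasmacytoid dendritic cell genes had a median log2 ratio of 0.00 over 9 tested, and 7 tested genes of lymph node stroma and high endothelial venules had a median of -1.29 with 2 called higher in the intracranial library. The summed log2 ratio was 1.24 for pan-leukocyte, 1.16 for macrophage, 1.07 for T cell, 0.78 for microglia and 2.75 for NK cell genes. Ighm had 4.52 and Cd79b 3.79. The microglia sum leaned on Olfml3, which held 25617 of its 45582 intracranial and 9850 of its 60302 extracranial counts. The part of any of these cells in the Ighm and Cd79b values was not tested.

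Of the 9 genes, 4 overlap another annotated gene. Neither use of the strand in counting nor the treatment of reads shared by several genes was stated. Ms4a1 overlaps an antisense gene, 4930526L06Rik, with 4 and 3 counts, so that its own few reads are uncertain. Igkc, Mzb1 and Pou2af1 overlap genes on the same strand with 0 counts in both libraries. If shared reads were left uncounted, the counts of these genes are too low, which was not tested. The ratio of Ighm to Igkc and the light chain shares carry the same limit. Ighm and Cd79b overlap no annotated gene.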

How the data were processed

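Poly(A) RNA of 2 mouse tumors was sequenced as directional single reads, 1 library per location. The deposited values are raw read counts per Ensembl gene, made by the authors with STAR 2.7.9a and featureCounts on GRCm39, with FastQC 0.11.9 and MultiQC 1.11 named in the submitters' processing notes. Strand use and the treatment of reads with several alignments were not given in the sources used here. Both columns were used. Symbols, exon lengths, biotypes, sequences and coordinates came from GENCODE release 21 (GRCm38), with 52135 of 55416 IDs matched (94.08%).

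Groups followed the location label. Library sizes were scaled by TMM in edgeR 4.0.16 (R 4.3.3), with factors 1.0058 and 0.9942. Ratios were given conditional exact binomial and levels and shares exact Clopper-Pearson 95% intervals in scipy 1.17.1, which was tested on simulated data. Genes with 10 or more counts over both libraries were tested and called where the interval lay beyond 4-fold. In log2 ratios of single genes a count below 3 was set to 3. A model across samples had no residual degrees of freedom.

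All 9 genes were named. The other named genes came from 17 lists and, for V segments, were the 3 with the most counts in each library, ties included. A microglia list, V shares by chain of the T cell receptor, and sums and shares without Ighm, Cd79b or Ighd, were added after values were seen. Members and lists were chosen with earlier results of these data known. Lists share genes with each other and with the 9. Alternatives were DESeq2 1.42.0 size factors, total counts, upper quartile, other count minimums and fold limits, edgeR's exact test with an assumed variation of 0.4, and pan-leukocyte scaling. Values of some listed genes are not reported here.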

Additional observations from a re-analysis of the deposited data

How the results depend on the processing

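No paired analysis was possible because there was 1 library for each location, and for the same reason no library could be left out. Ighm and Cd79b were the only members called under the TMM scaling and under each of 8 alternatives. The number of genes called was 1581, between 1155 and 1586 under the other scalings to the whole library, the other count minimums and edgeR's exact test, 118 higher in the extracranial and 2589 in the intracranial library with pan-leukocyte scaling, and 3434 with a 2-fold limit (1287 higher in the extracranial library and 2147 in the intracranial one). The summed log2 ratio of the members was 3.69, 2.93 without the constant region genes, 2.45 with pan-leukocyte scaling, 1.56 without Ighm and 0.50 without Ighm and Cd79b. Per kilobase, the heavy chain share of Ighm was 70.2% and 95.8% and that of Igha 25.1% and 1.76%, and without Ighm and Ighd the Igha share was 86.9% and 92.1% (intracranial and extracranial). With 10 counts as the limit, 0 V segments passed in the intracranial library, where 6 had more than 3 counts, and 0 in the extracranial one, where 1 had. By CPM in place of CPM per kilobase, 5 of the 9 genes kept their rank in each library. Pan-leukocyte scaling shifted every log2 ratio by -1.24 and the other scalings by at most 0.04. Depth limits Mzb1, Pou2af1, Ms4a1, Jchain, Cd79a and the V segments, and no value covers the spread between tumors.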
